A study of Mus musculus with 2 samples.

Results

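The 10 genes described here set the pace of the G1 phase of the cell cycle: the D-type cyclins *Ccnd1*, *Ccnd2* and *Ccnd3*, the E-type cyclin *Ccne1*, the kinases *Cdk4* and *Cdk6*, the inhibitors *Cdkn1b* (p27), *Cdkn1c* (p57) and *Cdkn2b* (p15), and the transcription factor *Myc*. They were chosen by name, and all 10 were found among the 16665 genes listed in either library. They were measured by single-cell RNA-seq in enteroids, 3D cultures of intestinal epithelium, grown from crypts of the ileum of mice aged 4 months (strain C57Bl6/129sv). There was 1 control library and 1 Taf4IEC library, both captured at day 8 of culture. Taf4IEC enteroids carry *Taf4* alleles flanked by lox sites and the Villin-driven Cre recombinase that acts in epithelial cells once 4-hydroxytamoxifen (4-OHT) is given. They received 1 µM 4-OHT for 3 days from day 5. The label of the control library names WT enteroids given the solvent ethanol alone, whereas the methods of the study describe Taf4lox/lox enteroids without Cre that were given 4-OHT, so that the allele and agent of the control are not settled. The number of mice or wells behind each library is not given in the sources used here.

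In epithelial cells, D-type cyclins are made in response to growth signals such as Wnt and bind Cdk4 or Cdk6. The active kinases phosphorylate the retinoblastoma protein and its relatives, which releases E2f factors and lets cyclin E with Cdk2 carry the cell into S phase. Cdkn2b and the other Ink4 proteins bind Cdk4 and Cdk6 directly, whereas Cdkn1b and Cdkn1c, of the Cip/Kip family, mainly bind cyclin E and cyclin A complexes. Myc, with its partner Max, binds the E-box and promotes growth and cycling. In the crypt the cyclins and kinases are active in stem and transit amplifying cells, and the cycle is left as cells differentiate.

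Promoter windows, from 250 bases before to 50 bases after the start of a transcript, were matched in RefSeq (GRCm38.p6) for *Ccnd3*, *Ccne1*, *Cdk4*, *Cdk6*, *Cdkn1b* and *Cdkn2b*, 6 of the 10 members. *Ccnd1*, *Ccnd2*, *Cdkn1c* and *Myc* were not matched. The windows of *Cdk4*, *Cdk6* and *Cdkn2b* are shown because the levels of the first pair and of *Cdkn2b* ran in opposite directions across cell clusters, as described below. Capitals mark the E-box (CACGTG), the TATA box (TATAAA) and the E2F motif (TTTNNCGC), searched on both strands.
Cdk4, chr10:127063285-127063584, plus strand: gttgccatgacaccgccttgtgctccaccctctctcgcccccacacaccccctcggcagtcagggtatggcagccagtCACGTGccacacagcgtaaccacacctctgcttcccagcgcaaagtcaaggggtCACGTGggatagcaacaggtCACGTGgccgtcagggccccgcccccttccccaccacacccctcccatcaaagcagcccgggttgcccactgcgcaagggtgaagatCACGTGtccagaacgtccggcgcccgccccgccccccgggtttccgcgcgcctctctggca
Cdk6, chr5:3343643-3343942, plus strand: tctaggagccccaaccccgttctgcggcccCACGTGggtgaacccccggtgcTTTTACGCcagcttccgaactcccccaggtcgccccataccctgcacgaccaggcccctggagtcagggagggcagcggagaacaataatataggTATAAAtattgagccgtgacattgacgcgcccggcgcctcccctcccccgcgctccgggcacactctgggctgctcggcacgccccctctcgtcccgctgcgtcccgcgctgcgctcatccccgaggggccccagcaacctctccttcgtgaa
Cdkn2b, chr4:89310983-89311282, minus strand: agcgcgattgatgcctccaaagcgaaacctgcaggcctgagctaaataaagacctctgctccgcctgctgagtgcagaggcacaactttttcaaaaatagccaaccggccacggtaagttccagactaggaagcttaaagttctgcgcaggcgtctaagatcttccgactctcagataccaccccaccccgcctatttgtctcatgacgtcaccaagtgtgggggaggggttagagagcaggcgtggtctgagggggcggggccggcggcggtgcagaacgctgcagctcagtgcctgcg
The *Cdk4* window holds 4 E-boxes, whose first bases lie at -172, -118, -98 and -11 from the start. The *Cdk6* window holds 1 E-box at -220, 1 E2F motif at -198 and 1 TATA box at -103. None of the 3 motifs is in the window of *Cdkn2b*. They are also absent from the windows of *Ccnd3*, *Ccne1* and *Cdkn1b*, which are not shown, so that their absence is not particular to *Cdkn2b*. Among 32851 promoter windows of the same length, 7.15% hold an E-box, 5.17% the E2F motif and 13.6% a TATA box. A match of letters is a description and not a binding site.

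The control library held 39947009 unique molecular identifiers (UMIs, 1 per captured transcript) in 2563 cells and the Taf4IEC library 24990128 in 1811 cells. Cells of the Taf4IEC library were shallower, with a median of 2254 UMIs against 16749, and 49.1% against 17.3% of the cells had under 2000. The libraries shared 2 cell barcodes. Of 11 markers of mesenchyme, blood and endothelium, 4 had UMIs in the control (21 UMIs in all) and 5 in the Taf4IEC library (24 UMIs). *Taf4* itself had 278 UMIs in the control and 236 in the Taf4IEC library, which gives 0.0696 and 0.0944 per 10000 UMIs, a log2 ratio of 0.44 (0.18 to 0.70). The library labelled Taf4IEC therefore did not have a lower level of *Taf4* UMIs. These are counts per gene from 3′ chemistry and cannot show whether the segment between the lox sites was lost. The libraries are named by their labels. With 1 library per group no test between conditions was possible. Levels are UMIs per 10000 UMIs of all genes, ratios are Taf4IEC over control, and the 95% intervals in parentheses (exact Poisson for levels, exact conditional binomial for ratios) cover counting error only. A gene was called higher or lower where its ratio was at least 2-fold with an interval clear of no difference and it had at least 200 UMIs over both libraries.

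Over all cells, the D-type cyclins *Ccnd1* and *Ccnd2* were the 2 of 10 members called higher, and 0 were called lower. Among 10002 genes with at least 200 UMIs, 5.52% were called higher and 3.48% lower. *Ccnd1*, which links growth signals to Cdk4 and Cdk6, was at 0.462 per 10000 in the control (1845 UMIs) and at 1.35 in the Taf4IEC library (3385 UMIs), a log2 ratio of 1.55 (1.47 to 1.63). *Ccnd2*, a second D-type cyclin, was at 2.66 (2.61 to 2.71) and 5.61 (5.52 to 5.70), which gives 1.08 on the log2 scale (1.04 to 1.11). Neither gene's levels overlapped between the libraries in their intervals. The median log2 ratio of all counted genes was 0.16, and relative to it *Ccnd2* was at 0.92. It thus lies at the limit of the call and fell short of it at 0.88 with median-of-ratios scaling, at 0.90 when mitochondrial and ribosomal protein genes, *Gm42418* and *AY036118* were left out of the total, and at 0.95 when each cell counted alike.

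The other 8 members lay within 2-fold of the control. *Ccnd3*, the third D-type cyclin, was at 0.360 (0.342 to 0.379) and 0.283 (0.262 to 0.305) per 10000, a log2 ratio of -0.35 (-0.48 to -0.22), so that the D-type cyclins did not share a direction. *Cdk4* was at 2.94 and 1.97, a log2 ratio of -0.58 (-0.63 to -0.53), and *Cdk6* at 1.10 and 0.946, a log2 ratio of -0.22 (-0.29 to -0.14). *Ccne1*, *Cdkn1b*, *Cdkn1c*, *Cdkn2b* and *Myc* had log2 ratios of -0.55, 0.18, 0.61, 0.70 and -0.20. At 1.5-fold, 4 members would be called higher, *Cdkn1c* and *Cdkn2b* in addition, and 0 lower, where 16.0% of all counted genes were higher and 7.47% lower. The signs of *Ccne1*, *Cdk6*, *Cdkn1b*, *Cdkn2b* and *Myc* turned in 1 or 2 of 9 alternative settings each. The median of the 10 members was -0.01, below the 0.16 of all counted genes.

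**Figure D1:**
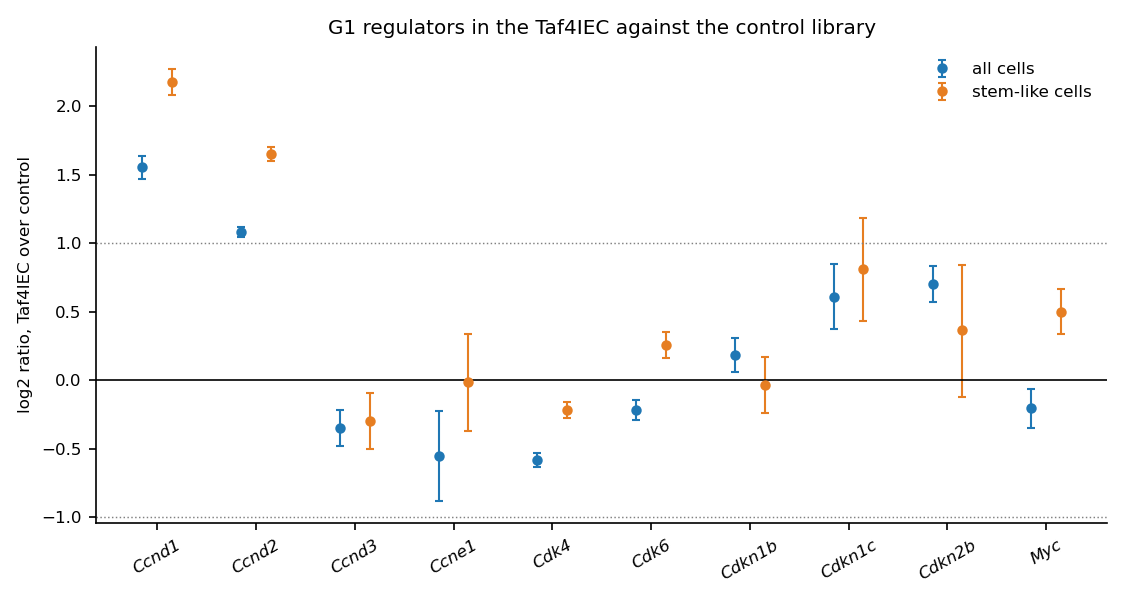
Log2 ratio of UMIs per 10000, Taf4IEC over control, for the 10 G1 regulators over all cells (blue) and over stem-like cells (orange), with bars for 95% intervals of counting error and dotted lines at 2-fold. *Ccnd1* and *Ccnd2* lie above the upper line in both, at 1.55 and 1.08 over all cells and at 2.18 and 1.65 in stem-like cells, and no member lies below the lower line.

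Clusters were formed in each library alone without the 10 members and without the other genes of the pathway, so that the classes do not rest on them. A cluster was named from fixed markers. The stem-like class held 1051 control cells (41.0%) in clusters of 304, 240, 217, 197 and 93 cells, and 546 Taf4IEC cells (30.1%) in clusters of 182, 168, 124 and 72. The Taf4IEC clusters of 168 and 124 stem-like cells were shallow, with median depths of 1774 and 1193 UMIs, whereas those of 182 and 72 cells had 34654 and 34452. In the cluster of 124 cells, *Malat1*, *Gm42418*, *AY036118* and *Lars2*, which mark low-quality cells, summed to 709 per 10000, against 70.3 over all control cells. The cluster of 182 cells was named from 5 stem markers, none of them among its 10 leading genes, with *Lgr5* at 2.07 and *Olfm4* at 5.80 per 10000. Its leading genes included *Ddit4l*, *Anxa1*, *Ly6d* and *Krt15*. The inhibitor *Cdkn1a* was at 4.61 in it, against 0.395 to 0.889 in control stem-like clusters and 2.09 to 4.70 in the other Taf4IEC ones. With markers at 2 times the mean level, the clusters of 182 and 168 cells stayed unnamed. Enterocyte-like cells numbered 161 and 172, Paneth/goblet-like cells 188 and 186 and enteroendocrine-like cells 263 and 128. The remaining 900 and 779 cells, in clusters that met no rule, stayed unnamed.

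Among the 4 named classes of the control library, *Ccnd1*, *Ccne1*, *Cdk4*, *Cdk6* and *Myc* had their highest level in stem-like cells. That of *Myc* overlapped Paneth/goblet-like cells in its interval. *Ccnd2* was highest in Paneth/goblet-like cells, *Cdkn1b* and *Cdkn1c* in enteroendocrine-like cells and *Cdkn2b* in enterocyte-like cells. The highest named class was the same in the Taf4IEC library for each of these 9 members. An unnamed control cluster of 250 cells had *Ccnd2* at 4.91 (4.71 to 5.13), above the 4.18 (3.96 to 4.42) of the Paneth/goblet-like cells. *Ccnd3* was the flattest across classes in both libraries. Its highest class was 1.39 times its lowest in the control and 1.33 times in the Taf4IEC library, and the intervals of neighbours in that order overlapped throughout.

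**Figure D2:**
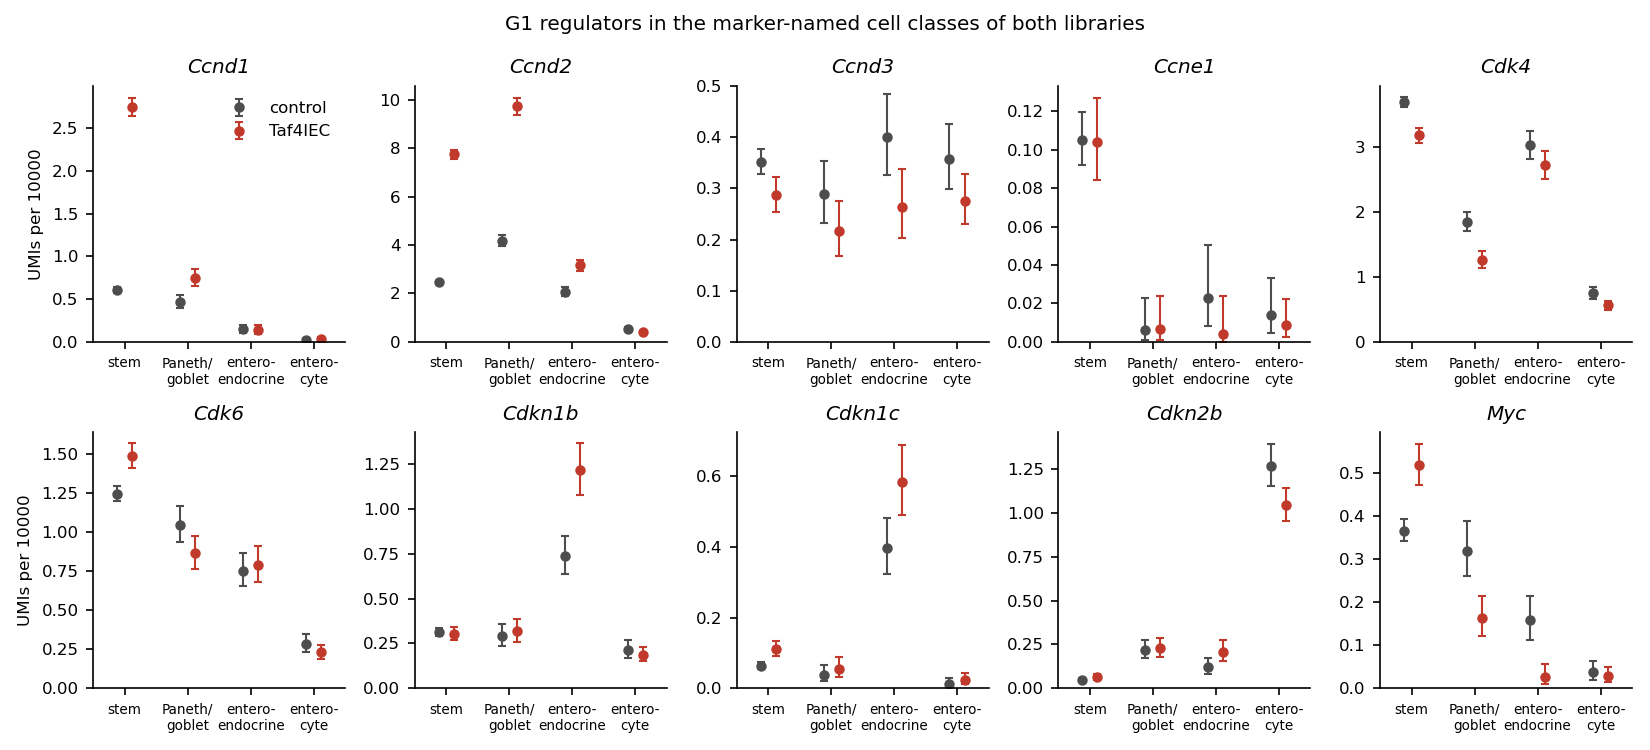
UMIs per 10000 of each G1 regulator in the 4 named cell classes of the control (grey) and Taf4IEC (red) library, each panel on its own linear axis from 0, with bars for exact Poisson 95% intervals. *Ccnd1* differs most between the libraries in stem-like cells (0.607 and 2.74), *Cdkn2b* stands at 1.27 and 1.04 in enterocyte-like cells, and *Cdkn1c* at 0.396 and 0.583 in enteroendocrine-like cells.

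In stem-like cells the same pair of D-type cyclins was called higher, 2 of 9 counted members, and 0 were called lower, with a background of 3.91% higher and 2.67% lower among 8192 genes. *Ccnd1* was at 0.607 per 10000 in the control (0.574 to 0.640) and at 2.74 in the Taf4IEC library (2.64 to 2.85), a log2 ratio of 2.18 (2.08 to 2.27). *Ccnd2* was at 2.47 (2.40 to 2.53) and 7.75 (7.57 to 7.93), which gives 1.65 on the log2 scale (1.60 to 1.70). Relative to the median of 0.19 over all genes counted in these cells, the ratios were 1.98 and 1.46. The median of the members in these cells was 0.31. *Ccnd1* was called in each of 10 alternatives, between 1.48 and 2.19, the last in cells with at least 2000 UMIs, where *Ccnd2* had 1.66. The alternative that named clusters without their leading genes left the class at 1051 and 546 cells, so that its values could not change. Where each cell counted alike no interval was made, and the fold alone decided. *Ccnd2* was not called where clusters were formed at resolution 0.5 (0.69), from both libraries together (0.75) or named from markers at 2 times the mean level (0.87). These alternatives left 381, 63 and 196 Taf4IEC cells in the class, and the 196 did not include the cluster of 182 cells. At resolution 0.5 a cluster of 237 Taf4IEC cells, with a median of 34923 UMIs, stayed unnamed. It shared the leading genes *AC167229.1* and *Gm17322* with the cluster of 182 cells. With both libraries clustered together, 223 cells with *Ddit4l* and *Ly6d* among their leading genes stayed unnamed. How many of the 182 cells these clusters held was not counted.

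Outside the stem-like class both genes had higher levels in the unnamed and the Paneth/goblet-like cells, whereas in enteroendocrine-like and enterocyte-like cells the interval of the *Ccnd1* ratio held no difference. In Paneth/goblet-like cells *Ccnd2* was at 4.18 per 10000 (3.96 to 4.42) in the control library and 9.73 (9.39 to 10.1) in the Taf4IEC library, which gives 1.22 on the log2 scale (1.12 to 1.31). It was the 1 member called of 4 counted there, with 1.99% of 3214 genes called higher and 1.24% lower. *Ccnd1* was at 0.469 and 0.749 in these cells, a log2 ratio of 0.68 (0.37 to 0.98). In enteroendocrine-like cells *Ccnd1* was at 0.146 (0.103 to 0.200) and 0.136 (0.0931 to 0.192), with overlapping intervals, and *Ccnd2* at 2.07 and 3.16, a log2 ratio of 0.61 (0.45 to 0.77). Of 5 counted members 0 were called there, with a background of 2.98% higher and 1.3% lower. In enterocyte-like cells *Ccnd1* had 7 UMIs in the control and 16 in the Taf4IEC library, and *Ccnd2* was at 0.517 and 0.404, a log2 ratio of -0.36 (-0.66 to -0.05). Of 5 counted members 0 were called in them, with a background of 1.17% higher and 1.31% lower. The unnamed cells had *Ccnd1* at 0.367 (0.328 to 0.410) in the control library and 0.973 (0.893 to 1.06) in the Taf4IEC library, and *Ccnd2* at 3.62 and 5.08. Shallow and deep cells were also set apart. In cells under 2000 UMIs *Ccnd1* had 9 UMIs in the control and 91 in the Taf4IEC library, 0.185 and 1.19 per 10000, and in cells with at least 2000 UMIs it was at 0.465 and 1.36, with no overlap of intervals between the libraries at either depth.

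By cluster, the 5 control stem-like clusters lay between 0.248 and 1.12 per 10000 for *Ccnd1*, and the 4 Taf4IEC stem-like clusters between 1.32 and 3.09. The groups of clusters did not overlap, although the lowest Taf4IEC cluster, of 168 shallow cells, had an interval (1.03 to 1.67) that overlapped that of the highest control cluster, of 93 cells (0.970 to 1.29). For *Ccnd2* the control stem-like clusters ran from 1.85 to 3.08, and the Taf4IEC clusters from 3.60 to 9.52. The highest was the cluster of 182 cells, at 9.52 (9.28 to 9.77), followed by the cluster of 72 cells at 4.57 (4.31 to 4.85). The latter was led by cell cycle genes such as *Tpx2* and *Ccna2*. The highest *Ccnd2* of all 25 clusters was in 88 Taf4IEC cells of the Paneth/goblet-like class led by the goblet markers *Clca1* and *Muc2*, at 10.4 (9.98 to 10.7). The other Paneth/goblet-like cluster of that library, 98 shallow cells led by defensins, was at 3.91 (3.23 to 4.70), an interval that holds the 4.18 of the single control cluster of the class. Defensins and goblet markers lead that control cluster together, and the summed Paneth/goblet markers were at 646 per 10000 in it against 1402 and 1497 in the Taf4IEC clusters; the part of these markers in the ratio was not tested.

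**Figure D3:**
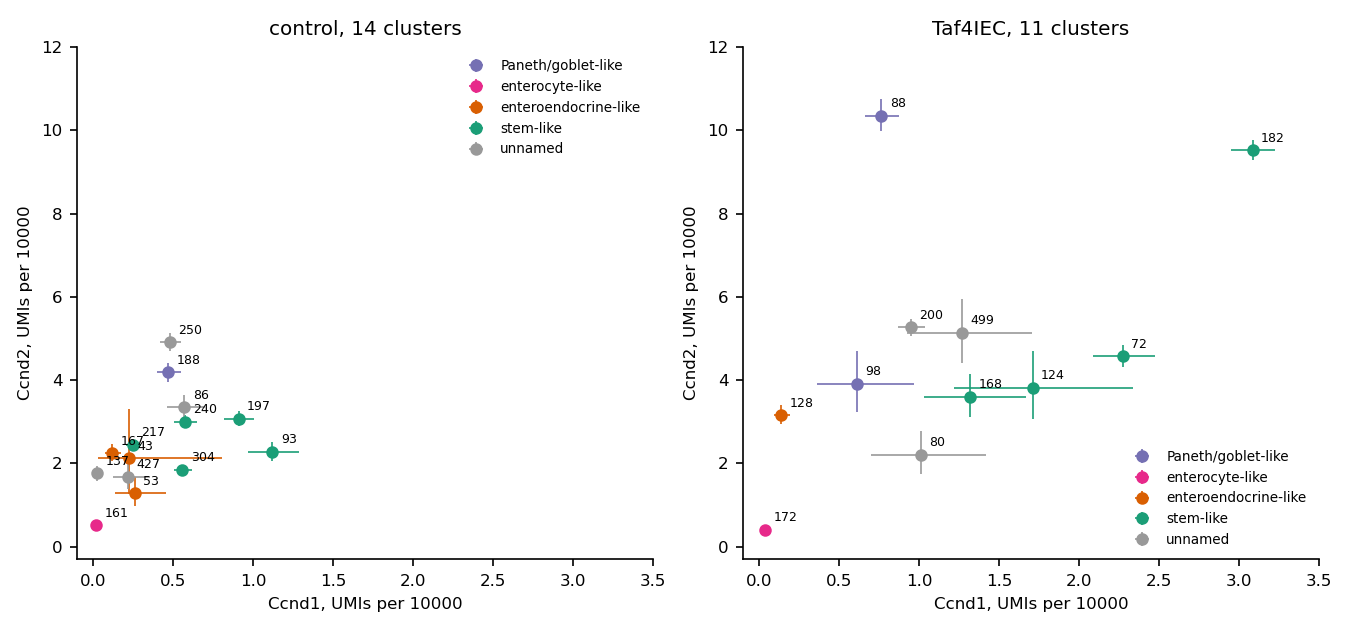
Level of *Ccnd1* (x axis) and *Ccnd2* (y axis), both in UMIs per 10000, in the 14 control clusters (left) and 11 Taf4IEC clusters (right) on the same axes, coloured by class, with 95% Poisson intervals and the number of cells beside each point. The control clusters reach 1.12 for *Ccnd1* and 4.91 for *Ccnd2*, whereas the Taf4IEC cluster of 182 stem-like cells lies at 3.09 and 9.52.

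Cell by cell, the difference was described only in the deeper stem-like cells. The cluster of 182 cells held 1891 of the 2555 *Ccnd1* UMIs and 5831 of the 7224 *Ccnd2* UMIs of the Taf4IEC stem-like class. Among stem-like cells with at least 5000 UMIs, 1029 in the control and 273 in the Taf4IEC library, the median cell had 0.425 UMIs of *Ccnd1* per 10000 in the control and 2.00 in the Taf4IEC library, and the 90th percentile was at 1.59 and 5.44. The median of the Taf4IEC cells thus lay above the 90th percentile of the control cells. For *Ccnd2* the medians were 2.08 and 5.90 and the upper quartiles 3.59 and 9.94. The share of cells with a UMI was compared after each cell was thinned to 2000 UMIs. *Ccnd1* was then seen in 120 of 1043 control stem-like cells (9.63% to 13.6%, Clopper-Pearson) and 123 of 351 Taf4IEC stem-like cells (35.0%, 30.1 to 40.3), a difference of 23.5 points (18.1 to 29.1, Newcombe). Without thinning the shares were 58.0% and 54.4%, at median depths of 21121 and 5072 UMIs. In enterocyte-like cells, which give the background of such shares, it was seen at 2000 UMIs in 0 of 157 control cells and in 2 of 133 Taf4IEC cells (0.183% to 5.33%). The count of 0 allows a share of cells with a UMI at that depth of up to 1.91% by 3 counts and up to 2.32% by Clopper-Pearson, and does not say that the gene was off. At their full median depths of 22759 and 32573 UMIs, 2.48% and 8.72% of these cells had a UMI. *Ccnd2* was seen in 35.7% and 60.4% of stem-like cells, a difference of 24.7 points (18.6 to 30.7).

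The kinases showed no such difference. *Cdk4* was at 3.69 per 10000 (3.61 to 3.77) in control stem-like cells and at 3.17 (3.06 to 3.29) in Taf4IEC stem-like cells, which gives -0.22 on the log2 scale (-0.28 to -0.16). *Cdk6* was at 1.24 (1.20 to 1.29) and 1.49 (1.41 to 1.57), which gives 0.26 on the log2 scale (0.16 to 0.35). Both intervals were clear of 0, but the sign of each turned in 1 of 10 alternatives, *Cdk4* to 0.21 with both libraries clustered together and *Cdk6* to -0.43 at resolution 0.5. Both genes had their lowest level in enterocyte-like cells, *Cdk4* at 0.745 and 0.560 and *Cdk6* at 0.284 and 0.230. The level of *Cdk4* in stem-like cells was 4.95 times that in enterocyte-like cells in the control and 5.67 times in the Taf4IEC library. For *Cdk6* these ratios were 4.38 and 6.48. The log2 ratio of *Cdk4* over all cells, -0.58, was farther from 0 than that in stem-like cells. It was -0.50 with unnamed clusters left out and -0.27 with the 4 named classes weighted alike. In unnamed cells it was -0.96 (-1.09 to -0.84) and in Paneth/goblet-like cells -0.55 (-0.74 to -0.36). Enterocyte-like cells had -0.41 (-0.67 to -0.16) and enteroendocrine-like cells -0.16 (-0.31 to -0.004). The part of the mix of classes in the ratio over all cells was not tested.

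*Ccne1*, the partner of Cdk2 at the entry into S phase, was almost wholly a gene of stem-like cells, which held 88.2% of its 262 UMIs in the control and 86.6% of its 112 UMIs in the Taf4IEC library, beside 55.0% and 37.3% of the UMIs of all genes. Its level there was 0.105 per 10000 (0.0920 to 0.120) and 0.104 (0.0844 to 0.127), which gives -0.01 on the log2 scale (-0.37 to 0.33), whereas over all cells the ratio was -0.55 (-0.88 to -0.22). The sign in stem-like cells turned in 5 of 10 alternatives, and the cells clustered from both libraries together gave 1.16. Within the class its level differed by cluster. In the control it was at 0.195 (0.164 to 0.231) in the cluster of 304 cells led by histone and replication genes and at 0.00435 (0.000526 to 0.0157) in the 217 cells led by the mitotic genes *Cenpf* and *Aspm*. In the Taf4IEC library it was at 0.226 (0.170 to 0.294) in the cluster of 72 cells and at 0.0424 (0.0277 to 0.0622) in the 182 cells in which *Ccnd1* and *Ccnd2* were highest among stem-like clusters.

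Phases were called in stem-like cells with at least 5000 UMIs after thinning to that depth, from gene lists that hold none of the 10 members. G1 held 224, S 468 and G2/M 337 of the control cells and 98, 117 and 58 of the Taf4IEC cells. The 22 control and 273 Taf4IEC cells that were too shallow were left out. *Ccne1* was highest in S, at 0.189 per 10000 (0.163 to 0.217) in the control library and 0.205 (0.162 to 0.256) in the Taf4IEC library, against 0.0255 and 0.00302 in G1 and 0.0357 and 0.0518 in G2/M. The Taf4IEC G1 value rests on 1 UMI. *Cdkn1b*, which restrains Cdk2 until it is degraded at S phase entry, was highest in G2/M in both libraries, at 0.458 (0.412 to 0.508) and 0.501 (0.401 to 0.618), about 2.06 and 2.07 times its lowest phase. Both genes thus had the same highest phase in each library.

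*Ccnd1* was lowest in G2/M in both libraries, at 0.286 in the control and 1.67 in the Taf4IEC library, against 0.747 and 3.17 in G1 and 0.801 and 3.02 in S. Its log2 ratio was 2.09 (1.90 to 2.28) in G1, 1.91 (1.78 to 2.04) in S and 2.55 (2.29 to 2.80) in G2/M, so that it was over 2-fold higher within each phase. *Ccnd2* was at 2.72 (2.56 to 2.89) in G1, 2.71 (2.61 to 2.82) in S and 2.03 (1.93 to 2.13) in G2/M in the control, lowest in G2/M with a highest phase 1.34 times the lowest. In the Taf4IEC library it was at 11.1 (10.7 to 11.4) in G1, 7.21 (6.95 to 7.49) in S and 3.67 (3.39 to 3.97) in G2/M, the same lowest phase with a highest 3.01 times it. Its log2 ratio was 2.02 (1.92 to 2.12) in G1, 1.41 (1.33 to 1.49) in S and 0.86 (0.72 to 0.99) in G2/M, with intervals that did not overlap between phases. *Myc* was lowest in G2/M in both libraries, at 0.267 and 0.374. Without thinning, 7 of 10 members kept their highest phase in each library.

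**Figure D4:**
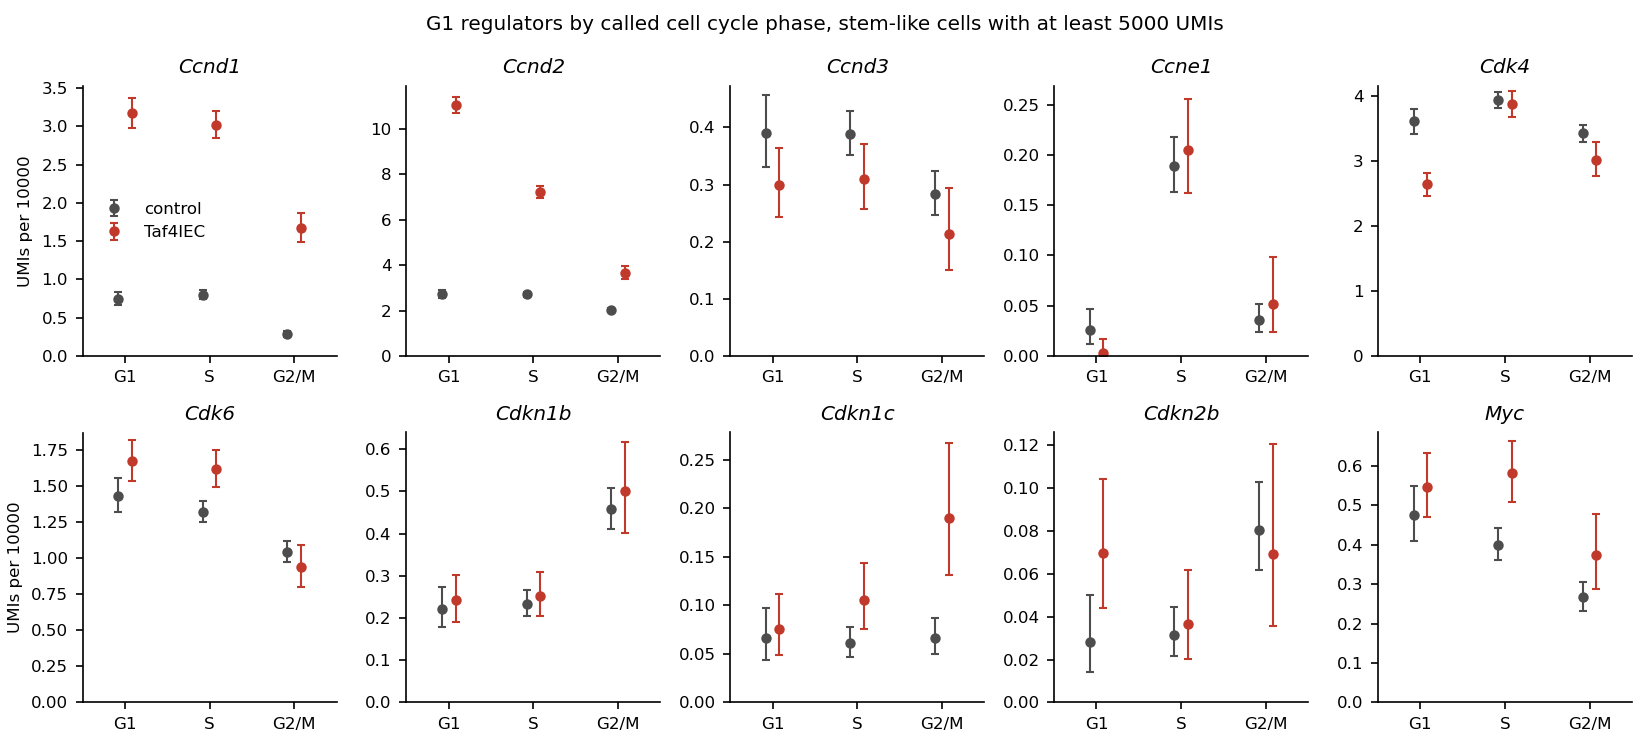
UMIs per 10000 of each G1 regulator by called phase in stem-like cells with at least 5000 UMIs, control in grey (224, 468 and 337 cells) and Taf4IEC in red (98, 117 and 58 cells), with exact Poisson 95% intervals and axes from 0. *Ccne1* peaks in S and *Cdkn1b* in G2/M in both libraries, and *Ccnd2* steps from 11.1 in G1 to 3.67 in G2/M in the Taf4IEC library, against 2.72 and 2.03 in the control.

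The inhibitors were highest outside the stem-like class. *Cdkn2b*, an Ink4 inhibitor of Cdk4 and Cdk6, was at 1.27 per 10000 (1.15 to 1.39) in control enterocyte-like cells and at 1.04 in those of the Taf4IEC library, a log2 ratio of -0.28 (-0.47 to -0.09). These cells held 49.2% and 51.7% of its UMIs, beside 8.81% and 18.3% of the UMIs of all genes. Its level in stem-like cells was 0.0482 (0.0395 to 0.0583) and 0.0622 (0.0472 to 0.0804). Its next highest clusters were unnamed, the 137 control cells led by *Reg3a* and *Reg3b* at 0.744 (0.631 to 0.872) and 200 Taf4IEC cells at 0.512 (0.451 to 0.578). Its ratio over all cells, 0.70, became -0.10 when the 4 named classes were weighted alike. Summed enterocyte markers moved with it over all cells, at 24.8 per 10000 in the control and 58.4 in the Taf4IEC library, with UMIs of all 12 markers in both; their part in the ratio was not tested.

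*Cdkn1c*, a Cip/Kip inhibitor encoded by an imprinted gene, was at 0.396 per 10000 (0.323 to 0.480) in control and 0.583 (0.489 to 0.689) in Taf4IEC enteroendocrine-like cells, which gives 0.56 on the log2 scale (0.18 to 0.94). These cells held 33.8% and 47.1% of its UMIs, beside 6.51% and 9.41% of the UMIs of all genes. The control class is made of clusters of 167, 53 and 43 cells, and 100 of its 103 *Cdkn1c* UMIs were in the 167 cells led by *Gcg*, *Pyy* and *Nts*, at 0.487 (0.396 to 0.592). The 53 cells led by *Tac1* and *Tph1*, markers of serotonin-producing cells, had 3 UMIs. The 43 shallow cells had 0, with an upper bound of 0.411 per 10000. The single Taf4IEC cluster of the class, 128 cells led by *Gip*, *Nts* and *Neurod1*, overlapped the cluster of 167 cells in its interval. In stem-like cells *Cdkn1c* was at 0.0637 (0.0536 to 0.0752) and 0.112 (0.0912 to 0.135), which gives 0.81 on the log2 scale (0.43 to 1.18).

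*Cdkn1b* was highest in enteroendocrine-like cells too, at 0.738 (0.637 to 0.850) in the control library and 1.22 (1.08 to 1.37) in the Taf4IEC library, which gives 0.72 on the log2 scale (0.45 to 0.99). The control clusters of 167 and 53 cells had it at 0.745 (0.632 to 0.873) and 0.698 (0.478 to 0.986), whereas *Cdkn1c* was at 0.487 and 0.0655 in them. The cluster of 43 shallow cells had *Cdkn1b* at 0.780 (0.314 to 1.61), from 7 UMIs. In stem-like cells *Cdkn1b* was at 0.312 and 0.305, a log2 ratio of -0.03 (-0.24 to 0.17). Within that class the control cluster of 217 mitotic cells stood out, at 0.550 (0.484 to 0.622), against 0.222 (0.179 to 0.272) in the 197 cells led by the replication genes *Mcm4* and *Mcm3*. Paneth/goblet markers summed to 136 per 10000 in the Taf4IEC enteroendocrine-like cluster and to between 32.2 and 42.9 in the control ones, a difference whose part in these levels was not tested.

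*Myc* was at 0.366 per 10000 (0.341 to 0.392) in control stem-like cells and 0.518 (0.473 to 0.566) in Taf4IEC stem-like cells, which gives 0.50 on the log2 scale (0.33 to 0.66). The sign turned in 2 of 10 alternatives, to -0.21 with both libraries clustered together and -0.16 with markers at 2 times the mean level. The cluster of 182 Taf4IEC cells had the highest level of the 25 clusters, 0.607 (0.547 to 0.672), and *Myc* was among its 10 leading genes. In Paneth/goblet-like cells the order was the opposite, 0.320 (0.261 to 0.389) in the control library and 0.164 (0.121 to 0.216) in the Taf4IEC library. In enteroendocrine-like cells *Myc* had 41 UMIs in the control and 6 in the Taf4IEC library, 0.158 (0.113 to 0.214) and 0.0255 (0.00937 to 0.0556) per 10000. Both were under the 200 UMIs needed for a call. Over all cells its log2 ratio was -0.20 (-0.34 to -0.06).

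Of 42 other genes of the G1 pathway, 40 were counted over all cells. In the list 2 were called higher, the Cip/Kip inhibitor *Cdkn1a* (p21) and the Myc antagonist *Mxd4*, and 6 lower, *Ccna2*, *Cdk1*, *Skp2*, *Cks1b*, *Mxd3* and *Mycl*. The share called higher, 2 of 40, was near the 5.52% of all genes, and that called lower, 6 of 40, stood beside 3.48%. The median log2 ratio of the 40 genes was -0.16, against 0.16 over all genes. Over all cells the 8 genes listed as cyclins, kinases and their partners had ratios below 1, from *Cdk1* at -1.70 (-1.82 to -1.59), which acts in mitosis, to *Cdk7* at -0.00496 (-0.16 to 0.15), a subunit of the Cdk-activating kinase. *Mki67*, a proliferation marker outside the list named after its value was seen, was at 1.01 and 0.317 per 10000.

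In stem-like cells 37 genes of the list were counted, with 2 higher and 4 lower. Among the 8192 genes counted in these cells, 3.91% were higher and 2.67% lower. *Cdkn1a*, a target of p53, was at 0.661 per 10000 in the control and 4.17 in the Taf4IEC library, a log2 ratio of 2.66 (2.57 to 2.75), so that the largest ratios among the counted cyclins and inhibitors were those of *Cdkn1a* and *Ccnd1*. *Mxd4*, which competes with Myc for Max, was at 0.0378 and 0.223, a log2 ratio of 2.56 (2.19 to 2.95). Those called lower were *Cdk1* at -1.36 (-1.49 to -1.23), the Ink4 inhibitor *Cdkn2d* at -1.62 (-2.02 to -1.24), *E2f2* at -1.52 (-2.14 to -0.95) and *Mxd3* at -1.21 (-1.76 to -0.69). Of the 8 cyclins, kinases and partners, 3 had ratios above 1 in these cells, the subunits of the Cdk-activating kinase *Cdk7* at 0.25 (0.04 to 0.46), *Ccnh* at 0.21 (0.04 to 0.37) and *Mnat1* at 0.35 (0.13 to 0.56). *Rb1*, the substrate of Cdk4 and Cdk6, lay at 0.14 (-0.14 to 0.42), and *Cdk2* at -0.48 (-0.77 to -0.20). Of the listed ubiquitin ligase parts that mark Cdkn1b for degradation, *Skp2* was at -0.73 (-1.06 to -0.41) and *Cks1b* at -0.75 (-0.87 to -0.64). *Cul1*, in the same group of the list, went the other way at 0.22 (0.07 to 0.36). *Cdkn2a*, the neighbour of *Cdkn2b*, had 1 UMI in the control and 0 in the Taf4IEC library, and *Mycn* had 72 and 2 UMIs over all cells.

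**Figure D5:**
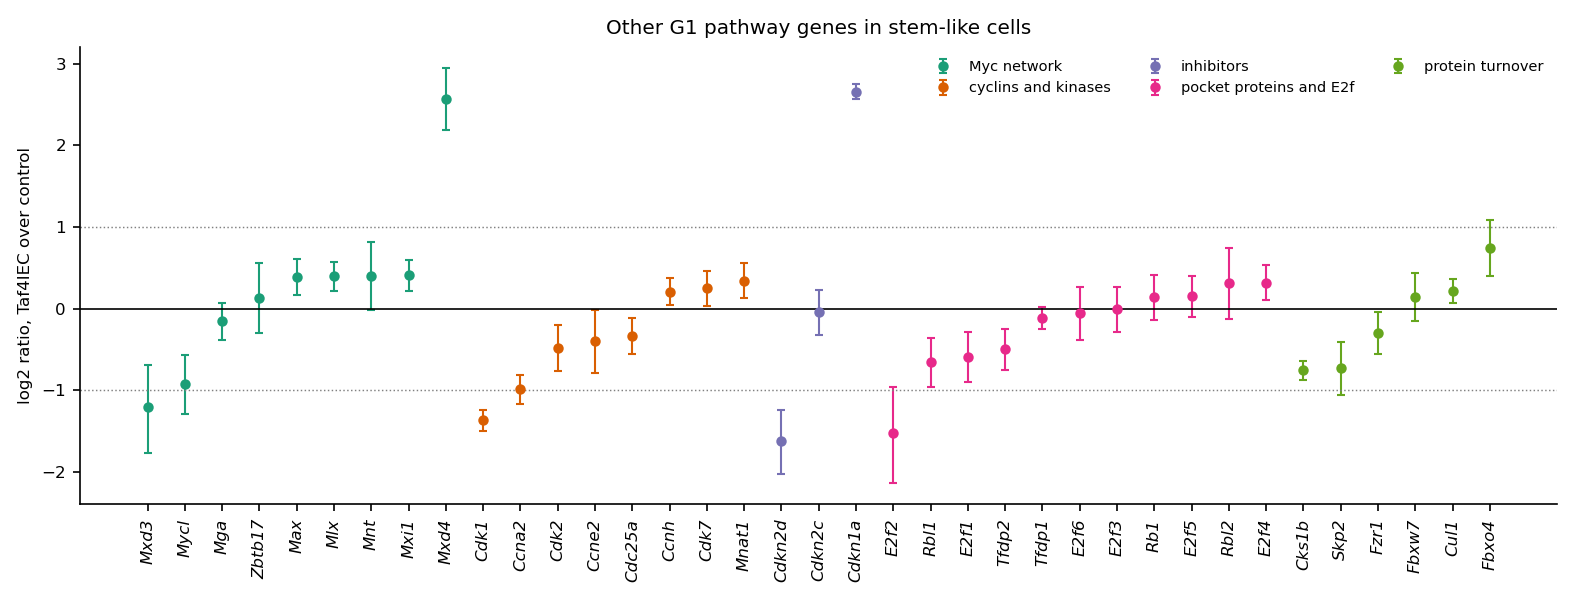
Log2 ratio, Taf4IEC over control, of the 37 other G1 pathway genes with at least 200 UMIs in stem-like cells, ordered within 5 groups of the list, with 95% intervals of counting error and dotted lines at 2-fold. *Cdkn1a* (2.66) and *Mxd4* (2.56) lie above the upper line, and *Cdk1*, *Cdkn2d*, *E2f2* and *Mxd3* below the lower one.

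Across the 25 clusters of both libraries, the members that went together most were *Cdk6* and *Myc* (Pearson's r = 0.80), *Ccnd1* and *Ccnd2* (0.76), *Ccnd1* and *Myc* (0.75) and *Cdk4* and *Cdk6* (0.75). *Cdkn2b* ran opposite to the kinases it inhibits, with r = -0.89 for *Cdk4* and -0.78 for *Cdk6*. These are the genes whose promoter windows are printed above. Clusters of 1 library share its free RNA and differ in depth, with median UMIs from 619 to 34654 in the Taf4IEC library, so that r is a description. Each cluster counted alike in r, also those with few UMIs of a member, such as the 43 control cells with 0 of *Cdkn1c*. Among 5721 other genes, the nearest to *Ccnd1* were *Krt18* (0.90) and *Nudcd2* (0.89), to *Ccnd2* *Rpl41* (0.84) and *Wls* (0.82), and to *Ccne1* the replication genes *Chaf1b* (0.85) and *Pcna* (0.85). Those nearest to *Myc* were *Slc12a2* (0.89), a stem marker of the lists used here, and *Rpl35* (0.86). *Cdk4* was nearest to *Abhd14a* (0.93) and *Hsp90ab1* (0.92) and *Cdk6* to *Atic* (0.91) and *2810004N23Rik* (0.90). The inhibitors paired with *Cyth2* (0.87) and *Aplp1* (0.84) for *Cdkn1b*, *Psme4* (0.90) and *Arid1a* (0.88) for *Cdkn1c*, and *Ms4a8a* (0.91) and *St3gal4* (0.89) for *Cdkn2b*. *Ccnd3* had the weakest match, *Oxa1l* (0.63) and *Timm44* (0.58).

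In RefSeq (GRCm38.p6) *Ccnd1* lies on chromosome 7 from 144929931 to 144939831 and *Ccnd2* on chromosome 6 from 127125162 to 127152188. The record of *Ccnd1* overlaps that of *LTO1* (listed as *Oraov1*), which was at 0.0821 per 10000 in the control and 0.154 in the Taf4IEC library, a log2 ratio of 0.90 (0.69 to 1.12). That of *Cdk4* (chromosome 10, 127063535 to 127067288) overlaps *Tspan31*, with 1998 and 1271 UMIs, a log2 ratio of 0.02 (-0.08 to 0.13). *Ccnd2*, *Ccnd3*, *Cdk6* and *Cdkn2b* overlap other records as well. How reads in such overlaps were assigned is not given in the sources used here, and their part in these counts was not tested.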

How the data were processed

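Live enteroid cells were sorted and profiled with 10x Genomics 3′ single-cell chemistry. The authors aligned reads to mm10, removed unexpressed genes and deposited raw UMI counts for each gene in each cell. The submitters' processing notes name bcl2fastq 2.17.1.14, Cell Ranger 3.1 and Seurat 3.1.4. All cells lay within the filter of the study, 200 to 6000 genes and under 15% mitochondrial UMIs. Total counts were 39947009 (control) and 24990128 (Taf4IEC).

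Sums of counts over cells are expressed per 10000 UMIs. Intervals are exact at 95% and cover counting error only, since 1 library per group allows no test. They were checked on simulated Poisson counts, the model they assume. That check covers the computation and not variation between cells or libraries. Where a share of cells was 0, 3 counts were taken as the limit. Each library was clustered in Seurat 5.3.0 (R 4.3.3; 20 principal components, 2000 variable genes, resolution 0.9) with the members and the pathway list left out of the variable genes (19 and 15 genes). Clusters were named from the list with most markers past 10 UMIs and 1.5 times the mean level of both libraries, with a minimum of 3, unless their 10 leading genes or a low depth went against it. Scrublet (scanpy 1.11.5) predicted 9 control doublets (0.351%) and 0 in the Taf4IEC library, too few to count as a working call, and no cell was removed. Intervals were computed with scipy 1.17.1 in Python 3.11.15. Phase lists left out the members and the pathway list.

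The members, lists and naming rule were chosen with earlier results of these data known. The genes named are the members, *Taf4*, the pathway list, the 2 genes most like each member across clusters (log2 of UMIs per 10000 plus 0.01, at least 1000 UMIs) and class markers; leading genes of clusters, overlapping genes and *Mki67* were named after their values were seen. The alternatives were other cells, totals, clusterings, naming rules, folds and depths.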

Additional observations from a re-analysis of the deposited data

Results flagged for a closer look

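With 1 library per group, outlying samples were not looked for. Members whose ratio, Taf4IEC over control, lay on opposite sides of 1 in 2 named classes, with both intervals clear of it, are given here. The difference between classes was not tested in any of them, and it rests on counting intervals within 1 library per condition.

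*Myc* had a log2 ratio of 0.50 in stem-like cells, of -0.97 in Paneth/goblet-like cells, 1.47 apart, and of -2.63 in enteroendocrine-like cells, 3.13 apart. The last rests on 41 control and 6 Taf4IEC UMIs. *Ccnd2* had 1.65 in stem-like, 1.22 in Paneth/goblet-like and 0.61 in enteroendocrine-like cells and -0.36 in enterocyte-like cells, from which they differ by 2.01, 1.57 and 0.97. *Cdk6* had 0.26 in stem-like and -0.28 in Paneth/goblet-like cells, 0.53 apart. *Cdkn2b* had 0.76 in enteroendocrine-like cells (32 and 49 UMIs) and -0.28 in enterocyte-like cells, 1.04 apart.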

How the results depend on the processing

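No paired analysis was possible because each group has 1 library. Over all cells, 1 member in place of 2 was called higher when each cell counted alike, with a total that omits mitochondrial and ribosomal protein genes, *Gm42418* and *AY036118*, with median-of-ratios scaling and when cells were thinned to 500 UMIs. *Ccnd1* was the one kept in the first 3. In the last it had 1.72 but under 200 UMIs, and *Ccnd2* was the one kept. The median log2 ratio of the members, -0.01, became 0.30, -0.19, -0.21 and 0.25 under these 4 alternatives, and 0 members were called lower in any of 9. In stem-like cells 1 member was called higher at resolution 0.5 and with markers at 2 times the mean level. The latter moved the median from 0.31 to 0.70. With both libraries clustered together the count stayed at 2, but *Ccne1* (1.16) stood in place of *Ccnd2*. *Cdkn1c* (1.09) passed 2-fold as well when each cell counted alike, which moved the count to 3. No interval was made where each cell counted alike or classes were weighted alike, so that the fold alone decided there. The pathway list had 4 genes higher and 11 lower at 1.5-fold, and all genes 1598 and 747. Without a minimum of UMIs, 1707 of all genes were higher and 728 lower. The split over all genes was 552 to 348, and 375 to 459 with the same omission, as the median ratio went from 0.16 to -0.03. Of shares of cells with a UMI, 5 members differed over all cells at 2000 UMIs and 8 at 5000. They went both ways, with *Cdk4* lower and *Ccnd1*, *Ccnd2* and *Cdkn1c* higher at both depths. The same count was not made over all genes, so that it has no background here. The cause was not tested for any of these. Depth limits *Ccne1*, *Cdkn1c* and *Cdkn2b* in particular, and *Myc* in enteroendocrine-like cells.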
